A study of Rattus norvegicus with 6 samples.

Results

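The cell cycle and proliferation genes described here are 10 genes, Ccnd1, Pcna, Ccna2, Cdk1, Top2a, Ccnb1, Plk1, Aurkb, Cdc20 and Mki67, of the 32883 Ensembl gene IDs counted in cultured rat spinal cord ependymal stem cells. They were picked by ID as standard markers of cell cycle entry, DNA replication and mitosis. The rule uses no measured value, but the list was drawn up with earlier results of these data known. RNA was sequenced in bulk from 3 control libraries, cells in neurobasal medium, and from 3 libraries of cells in the same medium with glutamate at 500 uM, all at day 2. The comparison asks whether this level of glutamate, an excitatory transmitter that is toxic to neurons in excess, goes with a change in the transcripts of dividing cells. The labels name no strain, age or sex, and do not say whether libraries 1 to 3 of a group are separate animals or cultures. The p-values therefore speak only to the spread between these libraries, which may be technical.

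The cell cycle is driven by cyclins, which are made and destroyed in turn, and by the cyclin-dependent kinases they switch on. Cyclin D1 links growth signals to exit from G1, replication proteins such as PCNA act in S phase, and cyclins A2 and B1 with the kinase CDK1 carry the cell through G2 into mitosis, where Polo-like and Aurora kinases and the anaphase-promoting complex set the order of events. Most mitotic transcripts are scarce in resting cells and accumulate in G2. In the spinal cord, ependymal cells line the central canal, divide little at rest, and are known to proliferate after injury and in culture.

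The promoters are shown because late cell cycle genes are known to share short elements near their start: CCAAT boxes, bound by NF-Y, and the cell cycle genes homology region (CHR), bound by the DREAM and MuvB complexes. Of the 10 genes, 7 had a promoter in the RefSeq table (build GRCr8), as a window of 250 bases before to 50 after the start, and Ccna2, Aurkb and Ccnd1 did not. Both strands were searched for CCAAT, for the CHR as TTTGAA or TTCGAA, and for E2F sites as TTTGGCGC, TTTCCCGC, TTTCGCGC or TTTGCCGC. Stretches of 6 promoters follow, 5′ to 3′ on the strand of the gene, with matches in capitals (ATTGG is CCAAT read on the other strand, TTCAAA is TTTGAA).
Cdk1 (chr20:19265153-19265251, plus strand): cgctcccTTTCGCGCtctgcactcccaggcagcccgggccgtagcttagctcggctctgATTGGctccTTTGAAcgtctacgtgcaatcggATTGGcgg
Top2a (chr10:84473094-84473258, minus strand): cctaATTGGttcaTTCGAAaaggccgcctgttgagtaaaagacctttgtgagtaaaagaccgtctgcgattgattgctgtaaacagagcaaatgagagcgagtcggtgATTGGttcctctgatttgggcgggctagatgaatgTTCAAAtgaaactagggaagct
Cdc20 (chr5:137255800-137255899, minus strand): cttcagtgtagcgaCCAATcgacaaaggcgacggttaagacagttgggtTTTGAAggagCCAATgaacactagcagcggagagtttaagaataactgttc
Plk1 (chr1:186147598-186147657, plus strand): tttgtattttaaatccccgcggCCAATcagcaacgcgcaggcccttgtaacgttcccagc
Ccnb1 (chr2:33655226-33655325, minus strand): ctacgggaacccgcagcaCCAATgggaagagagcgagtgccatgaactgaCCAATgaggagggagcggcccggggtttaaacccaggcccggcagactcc
Pcna (chr3:139955921-139956000, minus strand): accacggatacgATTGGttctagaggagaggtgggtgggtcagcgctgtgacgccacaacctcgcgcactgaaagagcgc

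All 7 windows held at least 1 CCAAT box, against 37.5% of the 33469 promoters of the same length in the table, and 5 of 7 held 2 or more, against 11.2%. A CHR match was present in 5 of 7 (Cdk1, Top2a, Cdc20, Plk1 and Mki67), against 19.7% of all promoters. The same 5 held both elements, as did 7.95% of all promoters. Ccnb1 held 2 CCAAT boxes and Pcna 1, and neither held those CHR letters. Cdk1 alone held an E2F match, at bases -133 to -126 from its start, against 2.14% of all promoters. In Cdc20 the CHR at -51 to -46 lay between 2 CCAAT boxes, and in Plk1 the CHR lay just after the start, at bases 7 to 12. Mki67 held 4 CCAAT boxes and 2 CHR matches. The transcript start used for Mki67 lay 254 bases inside the annotated gene span, so its whole window and all its matches lay inside that span. The start used for Cdk1 lay 41 bases inside its span. Distances for both depend on which transcript start is used. These matches describe letters and not sites of binding, and no binding was measured.

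**Figure D1:**
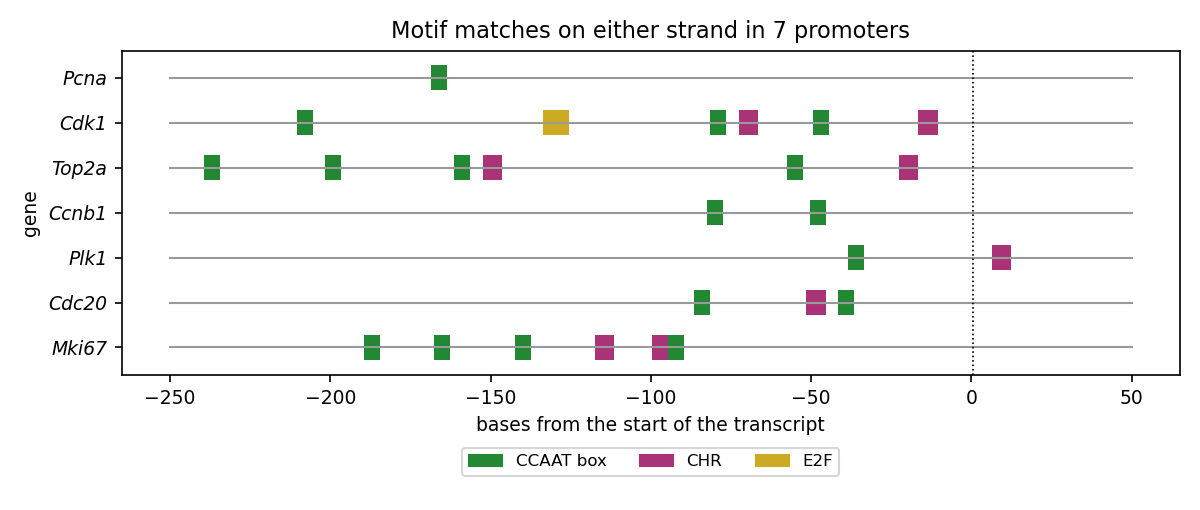
Matches of 3 promoter elements on either strand (coloured blocks) in 7 cell cycle promoters, by distance in bases from the start of the transcript (dotted line). The 4 genes with a CCAAT box and a CHR match wholly before the start used for the window are Cdk1, Top2a, Cdc20 and Mki67, and Pcna has 1 CCAAT box. The starts used for Mki67 and Cdk1 lie 254 and 41 bases inside the annotated gene span, so the whole Mki67 window lies inside it.

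With glutamate, the G1 cyclin Ccnd1 rose by 28.2%, a call that held in all 12 alternative fits. The mitotic kinase Aurkb fell by 12.5%, a call near the threshold that was lost in 5 of the 12. No change passed the test in the other 8 genes, which include the proliferation markers Mki67, Top2a and Pcna. Of the 10 members 1 was thus called higher and 1 lower (edgeR quasi-likelihood test, adjusted p below 0.05 over all genes). Over all 15919 genes tested, 14.1% were called higher and 13.7% lower, 27.7% in either direction, so the members' 2 of 10 lay near that background. All 10 passed the low-count filter, and the lowest count of any of them in any library was 27465 reads (Ccna2). The 3 control and 3 glutamate values did not overlap for 4 members, Ccnd1, Cdk1, Ccna2 and Aurkb, where 46.8% of all tested genes did not overlap. All 10 members averaged over 100 CPM, and of the 2400 genes at or above that level 33.5% were called and 56% did not overlap. The median absolute log2 fold change was 0.11 over the members, 0.15 over these 2400 genes and 0.21 over all genes tested. The median signed value was -0.04 over the members, -0.02 over the 2400 genes and -0.01 over all genes. In bulk RNA, fewer dividing cells and less of a transcript in each cell cannot be told apart.

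**Figure D2:**
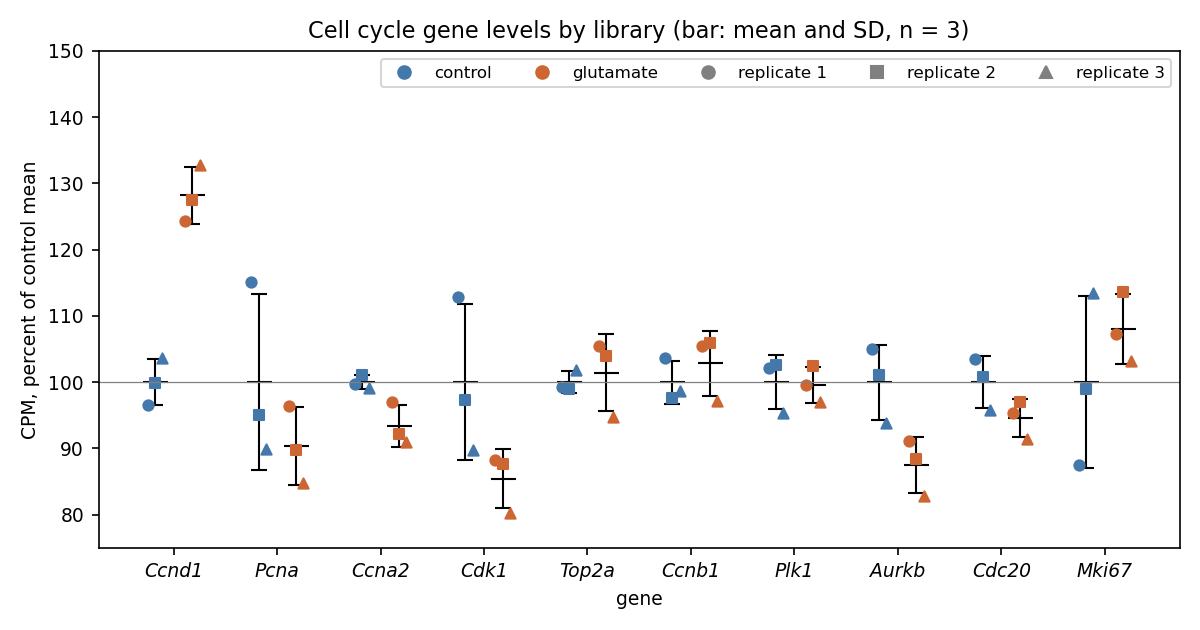
Level of each cell cycle gene in each library in CPM (read counts scaled by library size), as a percentage of the control mean of that gene. Points are libraries, with shape for the replicate number, and bars give mean and SD (n = 3). The glutamate libraries of Ccnd1 lie above all its control libraries, and the control libraries of Pcna, Cdk1 and Mki67 are the most spread.

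Ccnd1 (ENSRNOG00000020918) encodes cyclin D1, the partner of CDK4 and CDK6 that is induced by growth signals and starts the inactivation of the retinoblastoma protein. Levels are in CPM, read counts scaled by library size with TMM factors. Ccnd1 read 3472, 3589 and 3725 CPM in control replicates 1 to 3 and 4471, 4581 and 4774 CPM in glutamate replicates 1 to 3. The groups were well separated, with a gap between the highest control and the lowest glutamate library wider than the range inside either group. Group means were 3596 ± 127 and 4609 ± 153 CPM (SD, n = 3 each). The fitted log2 fold change was 0.36, with an SE of 0.06 and an edgeR adjusted p of 0.00217. The 95% interval of the fold was 1.17 to 1.40. By counts Ccnd1 was the 6th most abundant of the tested genes, a rank that also depends on transcript length. Among the 2400 genes averaging 100 CPM or more, its log2 fold change ranked 208th from the top. Over all 15919 genes tested it ranked 2865th. It stayed called under each of the 12 alternatives tried, with log2 fold changes from 0.33 to 0.39 and adjusted p of at most 0.0171.

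Pcna (ENSRNOG00000021264) encodes the sliding clamp that holds DNA polymerases on the template during replication. It read 483, 399 and 377 CPM in control replicates 1 to 3 and 405, 376 and 356 CPM in glutamate replicates 1 to 3. Control replicate 1 was the highest of the 6, and the other control libraries lay inside the range of the glutamate libraries. The log2 fold change was -0.15 with an SE of 0.09 (edgeR adjusted p = 0.27), and the 95% interval of the fold ran from 0.78 to 1.046. Without control replicate 1 it was -0.04 (edgeR adjusted p = 0.674). Any change of Pcna was therefore not resolved from the spread of the control libraries.

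Ccna2 (ENSRNOG00000015423) encodes cyclin A2, which works with CDK2 in S phase and with CDK1 in G2. It read 181, 183 and 180 CPM in control replicates 1 to 3 and 176, 167 and 165 CPM in glutamate replicates 1 to 3, so all glutamate values were below all control values. The difference was small, a log2 fold change of -0.10 (SE 0.05) that did not pass (edgeR adjusted p = 0.178, 95% interval of the fold 0.86 to 1.011). Its control libraries were the closest of any member, with a coefficient of variation (CV) of 1.002%.

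Cdk1 (ENSRNOG00000000632) encodes the kinase that triggers entry into mitosis. It read 324, 280 and 258 CPM in control replicates 1 to 3 and 254, 252 and 231 CPM in glutamate replicates 1 to 3. The groups did not overlap, but control replicate 3 lay within a few CPM of glutamate replicate 1. Cdk1 had the most negative log2 fold change of the 10, -0.23 (SE 0.08), with an unadjusted p of 0.0241 and an edgeR adjusted p of 0.074. The call was therefore not made, although the 95% interval of the fold, which is not adjusted for the number of genes, ran from 0.75 to 0.97. Without control replicate 1 the value was -0.13 (edgeR adjusted p = 0.0817). Without control replicate 3 it was -0.30 (edgeR adjusted p = 0.0153), and with the replicate number as a block -0.22 (edgeR adjusted p = 0.0317), and in these 2 fits Cdk1 was called.

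Top2a (ENSRNOG00000053047) encodes topoisomerase II alpha, which untangles sister chromatids. It read 911, 909 and 936 CPM in control replicates 1 to 3 and 969, 955 and 870 CPM in glutamate replicates 1 to 3, with glutamate replicate 3 the lowest of the 6 and the other glutamate libraries the highest. The fitted log2 difference was 0.02 with an SE of 0.06 (edgeR adjusted p = 0.82), and the 95% interval of the fold ran from 0.92 to 1.11.

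The cyclin B1 gene Ccnb1 (ENSRNOG00000058539), whose product pairs with CDK1 to start mitosis, read 218, 206 and 208 CPM in control replicates 1 to 3 and 222, 223 and 205 CPM in glutamate replicates 1 to 3. The groups overlapped, and the log2 fold change was 0.04 with an SE of 0.06 (edgeR adjusted p = 0.628, 95% interval of the fold 0.94 to 1.124). Plk1 (ENSRNOG00000018815) encodes Polo-like kinase 1, which acts in spindle assembly and mitotic exit. It read 200, 201 and 187 CPM in control replicates 1 to 3 and 195, 201 and 190 CPM in glutamate replicates 1 to 3. Its glutamate libraries all lay inside the control range, with a log2 fold change of -0.01, an SE of 0.05 (edgeR adjusted p = 0.95) and a 95% interval of the fold from 0.91 to 1.08.

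Aurkb (ENSRNOG00000005659) encodes the kinase of the chromosomal passenger complex, which corrects chromosome attachment and acts in cytokinesis. It read 216, 208 and 193 CPM in control replicates 1 to 3 and 188, 182 and 171 CPM in glutamate replicates 1 to 3. All glutamate values lay below all control values, with the lowest control library close to the highest glutamate library. Group means were 206 ± 12 and 180 ± 9 CPM (SD, n = 3 each). The fitted log2 fold change was -0.19, with an SE of 0.06 and an edgeR adjusted p of 0.0465, and the 95% interval of the fold ran from 0.79 to 0.96. This call lay just inside the threshold. It was lost in 5 of 12 alternatives, with adjusted p of 0.15, 0.0888, 0.139 and 0.172 in edgeR without control replicate 2 and without glutamate replicates 1, 2 and 3, and 0.058 with a filter of 1 CPM in 3 libraries. The direction was the same in all 12, with log2 fold changes from -0.24 to -0.16.

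Cdc20 (ENSRNOG00000028415) encodes an activator of the anaphase-promoting complex, which marks cyclin B1 for destruction. It read 391, 380 and 361 CPM in control replicates 1 to 3 and 360, 366 and 345 CPM in glutamate replicates 1 to 3. The groups overlapped through control replicate 3, and the log2 fold change was -0.08 with an SE of 0.06 (edgeR adjusted p = 0.303, 95% interval of the fold 0.87 to 1.03).

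Mki67 (ENSRNOG00000028137) encodes Ki-67, a coat of mitotic chromosomes and the common stain for cycling cells. It read 468, 529 and 606 CPM in control replicates 1 to 3 and 573, 607 and 551 CPM in glutamate replicates 1 to 3. The control libraries alone spanned nearly the whole range of the 6, with a CV of 13.0% against 4.90% in the glutamate libraries. The log2 fold change was 0.11 with an SE of 0.09 (edgeR adjusted p = 0.383), and the 95% interval of the fold ran from 0.94 to 1.24. The value depended on single control libraries. It was 0.02 (edgeR adjusted p = 0.809) without control replicate 1, and 0.21 without control replicate 3, where the call was just made (edgeR adjusted p = 0.0498).

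**Figure D3:**
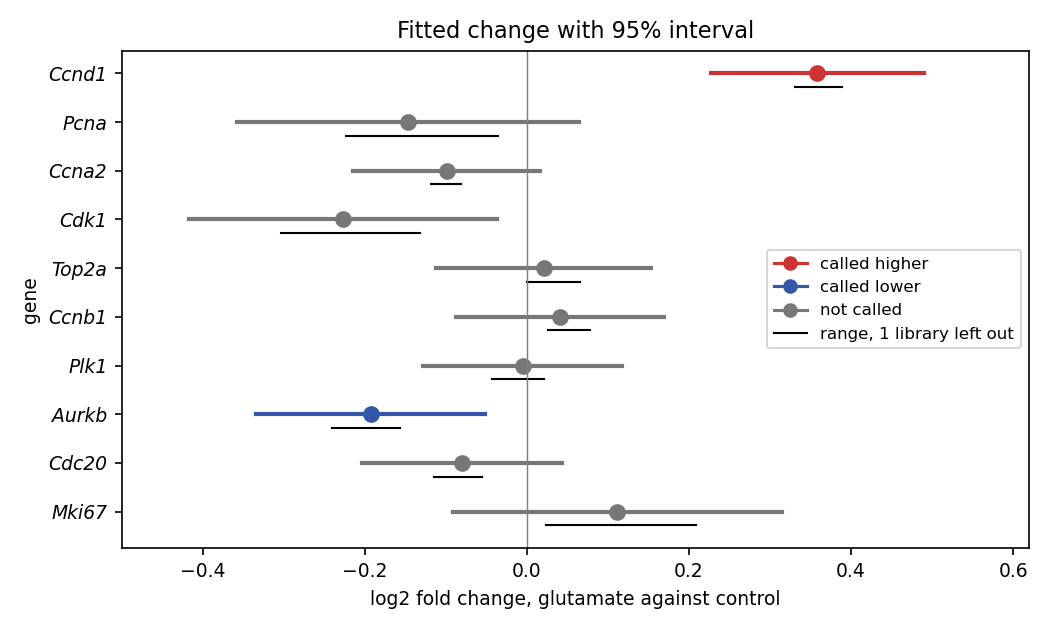
Fitted log2 fold change of glutamate against control for each cell cycle gene (points) with its 95% interval (coloured bars, not adjusted for the number of genes) and, below each in black, the range when 1 library is left out. Ccnd1 at 0.36 is called higher, Aurkb at -0.19 is called lower, and the other 8 are not called.

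The 8 genes of late S phase, G2 and mitosis (Mki67, Top2a, Ccnb1, Cdk1, Ccna2, Plk1, Aurkb and Cdc20) summed to 2911 ± 17 CPM in the control group and to 2872 ± 126 CPM in the glutamate group (SD, n = 3 each). Glutamate replicate 3, at 2727 CPM, was below the other 5 libraries, which lay between 2895 and 2953 CPM. This sum is led by Top2a and Mki67, which had the most reads. Its small control SD hides opposite moves of single members. From control replicate 1 to 3, Mki67 went from 468 to 606 CPM and Top2a from 911 to 936 CPM. Cdk1 went from 324 to 258 CPM, and the other members of the sum also fell. The members differed in sign. Of the 8, Mki67, Top2a and Ccnb1 had positive and Cdk1, Ccna2, Plk1, Aurkb and Cdc20 negative log2 fold changes, of which the fall of Aurkb alone was called. The signs of Plk1 and Top2a turned when single libraries were left out. For these 2 genes and Ccnb1, the 95% intervals lay between folds of 0.91 and 1.124.

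**Figure D4:**
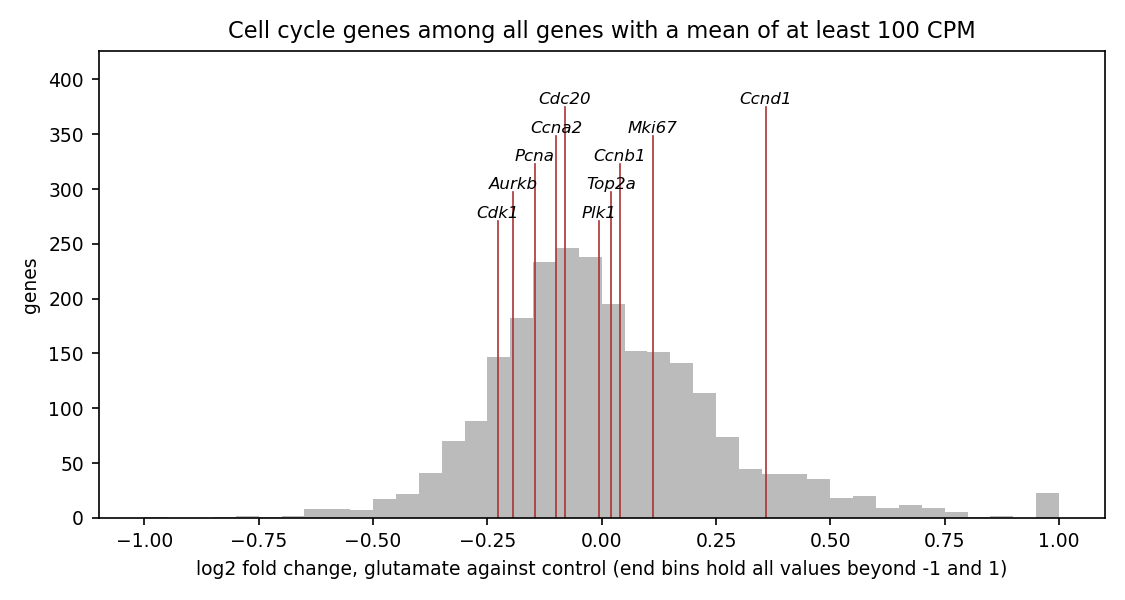
Histogram of fitted log2 fold changes over the 2400 genes that average 100 CPM or more (grey), with the 10 cell cycle genes as red lines. Ccnd1 has 207 genes above it, and the other 9 lie between -0.23 and 0.11. Cdk1, the lowest of the 10, ranks 2070th from the top.

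The libraries of a group differed in a way that ran through several members. In 9 of 10 members glutamate replicate 3 was the lowest glutamate library, and in the remaining one, Ccnd1, it was the highest. How often glutamate replicate 3 was the lowest over all tested genes was not counted, so this may not be particular to the members. In the control group, replicate 1 was the highest library for Cdk1, Pcna, Aurkb, Cdc20 and Ccnb1 and the lowest for Mki67 and Ccnd1. Replicate 3 was the lowest for Cdk1, Ccna2, Plk1, Aurkb, Cdc20 and Pcna and the highest for Mki67, Top2a and Ccnd1. Part of this order was shared between the groups. Cdk1, Pcna and Aurkb fell from replicate 1 to replicate 3 in both groups, and Ccnd1 rose in both. Mki67 and Top2a instead had replicate 3 highest in control and lowest with glutamate. Whether the numbers pair the groups is not stated. Cdk1, Pcna and Mki67 had control CVs of 11.8%, 13.3% and 13.0%, against 5.65% or less in the other 7. What sets these libraries apart was not tested, and the labels give no batch or date.

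Ratios of 2 members within a library do not depend on how libraries are scaled. The pairs were chosen after the values were seen, so the ratios are given without a test, and their absolute level also reflects transcript length. There were 10.7, 12.8 and 14.4 Ccnd1 reads per Cdk1 read in control libraries and 17.6, 18.2 and 20.7 with glutamate, a geometric mean 1.495-fold higher. For Ccnd1 against Pcna the ratios were 7.19, 8.99 and 9.88 in control libraries and 11.05, 12.2 and 13.4 with glutamate, 1.41-fold higher. The groups did not overlap in either ratio. For Ccnd1 to Cdk1 this was fixed in advance, since each gene alone separated the groups, in opposite directions. How often ratios of other gene pairs separate the groups was not counted. The ratio of Ccnb1 to its kinase partner Cdk1 was 0.674, 0.736 and 0.805 in control libraries, and 0.875, 0.885 and 0.887 with glutamate, 1.199-fold higher and much closer together with glutamate. The ratio of Mki67 to Top2a overlapped, at 0.513, 0.582 and 0.648 in control libraries and 0.591, 0.636 and 0.633 with glutamate.

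**Figure D5:**
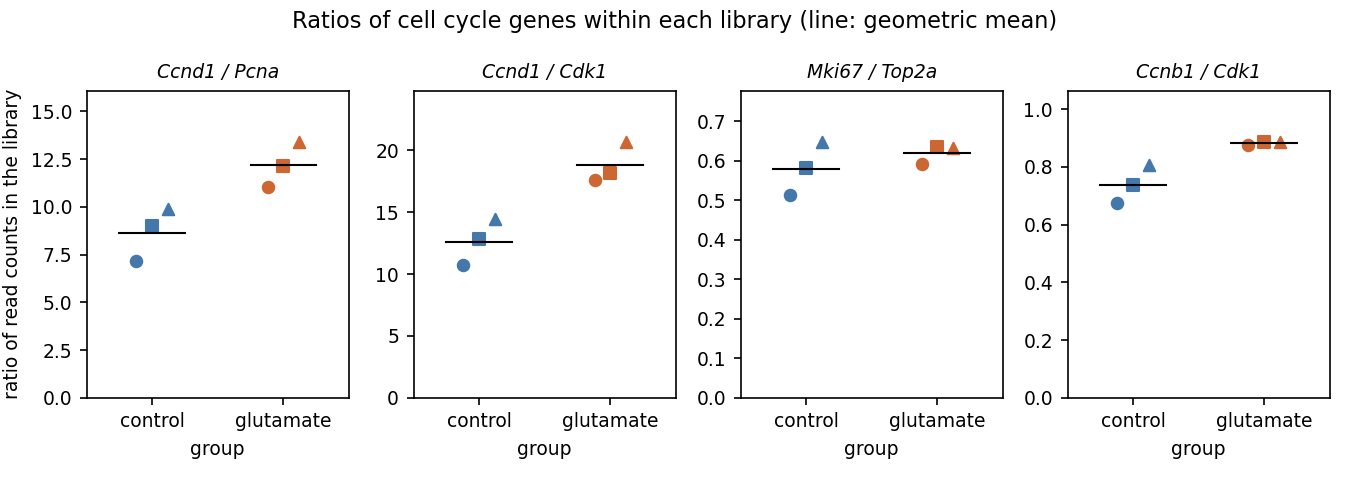
Ratio of the read counts of 2 cell cycle genes in each library (points, with shape for the replicate number), by group, with the geometric mean as a line and each axis from 0. The glutamate libraries lie above all control libraries for Ccnd1 to Pcna, Ccnd1 to Cdk1 and Ccnb1 to Cdk1, and overlap them for Mki67 to Top2a. For Ccnd1 to Cdk1 the separation follows from that of each gene alone.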

How the data were processed

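The authors deposited raw read counts per Ensembl gene ID, 1 table per library, per the file headers. The submitters' processing notes name STAR 2.7.8a, featureCounts 2.0.1, Trim Galore 0.6.5 and SAMtools, with build rn6. Annotation release, strand setting and handling of shared reads were not given in the sources used here, so reads shared with copies or with genes on the other strand remain uncertain.

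Totals ran from 166567977 to 181352365 counts per library. The members, their symbols (a list of ID and symbol pairs, since the files hold IDs alone), the motifs and the tests were chosen with earlier results of these data known. The RefSeq table carries an Ensembl ID in 0 of 47357 rows, so wider cell cycle lists and cell type markers were not analysed here, and the labelled cell type was not checked against markers. All 10 members are named.

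Counts were fitted with edgeR 4.0.16 in R 4.3.3: filterByExpr (minimum count 10, minimum total 15), TMM, robust glmQLFTest of glutamate against control over 6 libraries without covariates, Benjamini-Hochberg adjustment over all tested genes. SE is the size of the log2 fold change divided by the square root of F, and 95% intervals use the total degrees of freedom. Alternatives were RLE factors, total counts, DESeq2 1.42.0, 2 other filters, a replicate block and leaving out each library. The fit was tested on simulated data. All libraries were treated as separate, since the chi-square statistic per gene was at least 19.0 in every pair. Control replicate 1 stood apart from its group, at 88.3 and 160 from control replicates 2 and 3, which were 32.0 from each other. Control replicate 3 was 152 from glutamate replicate 2.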

Additional observations from a re-analysis of the deposited data

How the results depend on the processing

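Over 120 combinations of a member and an alternative, 106 kept direction and side of the threshold, 5 lost a call (all Aurkb), 3 gained one (Cdk1 and Mki67) and 6 changed sign, all in genes without a call. The log2 fold change of Plk1 was 0.0074 with a filter of 1 CPM in 3 libraries and ran from -0.043 to 0.020 with 1 library left out. That of Top2a ran from -0.00017 to 0.066 with 1 library left out, and its sign changed only without glutamate replicate 1. Members called numbered 1 with the CPM filter (0 lower) and 1 to 4 with 1 library left out (1 to 2 higher, 0 to 2 lower), and all genes called then numbered 2420 to 5584. The 2 groups share replicate numbers, and with the replicate block 2 members were called lower, Aurkb and Cdk1, and 4553 genes in all. The labels do not say whether these numbers pair the groups, so the block stayed an alternative. Over all tested genes, same-numbered deviations correlated at 0.10, -0.02 and 0.14. Each library except both with number 2 had its highest correlation with its own number. Several members kept their library order in both groups. With the block the SE went from 0.084 to 0.063 for Cdk1 and from 0.093 to 0.061 for Pcna. For Top2a it rose from 0.059 to 0.064. RLE factors, total counts, DESeq2 and no filter changed no call of a member and no sign, and moved the median of all genes by under 0.1. The 4 ratios kept their direction with each library left out, which the gap between groups fixes for 3 of them. The planned lists of other cell cycle genes were not run, for want of gene names. Depth did not limit these genes, each with at least 27465 reads per library. A gene without a call is not shown to be unchanged.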
